A study of Caenorhabditis elegans with 2 samples.

Results

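AMP-activated protein kinase (AMPK) is a heterotrimer of a catalytic alpha subunit, a scaffolding beta subunit and a regulatory gamma subunit that binds adenine nucleotides. When energy is low, AMP or ADP bound to the gamma subunit favours phosphorylation of the alpha subunit, and the active kinase restrains lipid and protein synthesis and favours breakdown of stored fuel. In Caenorhabditis elegans, AAK-2 is known for its part in lifespan extension, in the larval responses to starvation and in fat use. The genes described here were aak-1 and aak-2 (alpha), aakb-1 and aakb-2 (beta), and aakg-1 and aakg-2 (gamma), 6 of 19973 protein-coding genes. They were chosen by their signal in these lists, selected on the ranks of the regions at aakg-1 and aak-2 with E-boxes and replicate agreement in view, so all values below are descriptions and carry no test.

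Binding of an eGFP-tagged transcription factor was mapped by chromatin immunoprecipitation with sequencing (ChIP-seq) in whole L3 larvae of both sexes, in 2 biological replicates of 1 group. All animals were of strain OP355, genotype unc-119(tm4063) III; wgIs355, in which the tagged gene is an integrated transgene. No other strain, stage or treatment was analysed here. The labels name the target in different ways: the antibody and source fields name mdl-1, and the free description names ZK337.2. MDL-1 is a Mad-like basic helix-loop-helix leucine zipper protein, a family that binds the E-box CACGTG as dimers, and the protein is called the tagged factor below.

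The data were lists of called regions on build ce11, which is WBcel235. The pooled list held 30000 regions, the replicate 1 list 15898 and the replicate 2 list 30000. The list that passed the irreproducible discovery rate (IDR) step held 1015 regions, which were the 1015 strongest of the pooled list. Signal is the score the authors' peak caller gave each region. It has no stated scale and was used to rank regions within a list. Its median was 7.20 in the pooled list, 39.4 in the IDR list, 3.24 in replicate 1 and 5.99 in replicate 2. The number of reads behind each list is unknown. A region was assigned to a gene where its summit lay in the gene or within 10 kb of its 5′ end, called the gene window.

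The regulatory gamma gene aakg-1 and the catalytic gene aak-2 held IDR summits in their windows, 5 and 1 respectively. The other 4 genes held none. This is 2 of 6 genes, or 33.3%, where 15.3% of all protein-coding genes held at least 1. The highest pooled region in the aakg-1 window ranked 6 of 30000 and that in the aak-2 window ranked 26. The highest pooled regions of aakg-2, aakb-1, aak-1 and aakb-2 ranked 1115, 2461, 2837 and 5046 in that order.

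The sequences of the 6 IDR regions are shown because the E-box content differed among them, with the strongest aakg-2 region beside them as the one nearest below the IDR list. All are from the RefSeq WBcel235 assembly, plus strand, 5′ to 3′. Capitals mark CACGTG and its 1-base variant CACGCG, on either strand. CACGTG reads the same on both strands, and aakg-1 and aakg-2 are transcribed from the minus strand. The aakg-1 regions are numbered by pooled signal. Regions 1 and 2 are printed whole, regions 3, 4 and 5 as 201 bases centred on the summit, aak-2 as the first 200 bases of its region and aakg-2 as 101 bases centred on the summit. Their positions are chrIII:12583549-12583829, chrIII:12568393-12568519, chrIII:12556202-12556402, chrIII:12558165-12558365, chrIII:12549632-12549832, chrX:16796883-16797082 and chrX:16871443-16871543.
aakg-1 region 1: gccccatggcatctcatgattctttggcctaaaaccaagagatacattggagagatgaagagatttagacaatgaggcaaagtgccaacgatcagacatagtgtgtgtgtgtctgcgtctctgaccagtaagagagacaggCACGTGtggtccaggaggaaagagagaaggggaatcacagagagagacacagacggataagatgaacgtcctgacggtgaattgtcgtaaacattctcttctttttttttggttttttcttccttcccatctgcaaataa
aakg-1 region 2: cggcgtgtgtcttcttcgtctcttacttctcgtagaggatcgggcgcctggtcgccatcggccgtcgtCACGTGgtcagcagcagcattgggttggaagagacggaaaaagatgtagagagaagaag
aakg-1 region 3: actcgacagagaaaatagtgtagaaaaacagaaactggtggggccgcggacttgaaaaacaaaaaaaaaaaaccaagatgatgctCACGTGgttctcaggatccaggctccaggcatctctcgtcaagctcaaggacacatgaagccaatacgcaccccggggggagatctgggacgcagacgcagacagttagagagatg
aakg-1 region 4: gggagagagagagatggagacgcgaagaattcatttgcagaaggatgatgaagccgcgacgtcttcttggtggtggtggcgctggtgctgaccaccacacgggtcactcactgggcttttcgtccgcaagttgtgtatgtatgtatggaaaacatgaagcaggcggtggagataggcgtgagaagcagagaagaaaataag
aakg-1 region 5: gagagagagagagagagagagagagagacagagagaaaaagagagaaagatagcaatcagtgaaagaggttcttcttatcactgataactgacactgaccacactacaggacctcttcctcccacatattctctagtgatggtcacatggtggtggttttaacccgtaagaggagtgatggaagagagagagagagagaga
aak-2: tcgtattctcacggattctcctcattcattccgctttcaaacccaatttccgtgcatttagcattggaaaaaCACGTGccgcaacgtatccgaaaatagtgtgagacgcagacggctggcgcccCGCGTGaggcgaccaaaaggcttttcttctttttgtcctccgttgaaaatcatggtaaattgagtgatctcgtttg
aakg-2: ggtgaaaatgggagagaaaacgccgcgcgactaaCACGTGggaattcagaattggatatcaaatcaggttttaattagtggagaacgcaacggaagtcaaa

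The gamma subunit gene aakg-1 (WBGene00013732) lies on the minus strand of chromosome III, from 12538664 to 12575401. At 36.7 kb it was longer than 99.9% of protein-coding genes, and its 7 annotated transcripts begin at 7 positions. Its window of 46.7 kb held 14 pooled regions, 13 replicate 1 regions and 16 replicate 2 regions, beside medians of 6, 3 and 6 over all genes. The highest signal was 313 in the pooled list, 92.5 in replicate 1 and 222 in replicate 2. Those values exceeded the highest values of 99.94%, 99.99% and 99.90% of protein-coding genes in the same lists, and 11 genes had a higher pooled value. A long window gives more room for a high value. Among the 1997 genes closest to aakg-1 in length, its pooled value exceeded 99.85%. All 14 pooled regions had aakg-1 as the gene with the nearest 5′ end.

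Region 1 of aakg-1 was the highest region of the window in each list. It was 281 bp wide, with its summit at 12583690, in intergenic sequence 8289 bp upstream of the annotated 5′ end. The next 5′ end on the other side, that of gldi-8, was 16039 bp away. Replicate 1 placed its summit 24 bp to the left and replicate 2 at the same base, with ranks 3 and 8. Among the 130 IDR summits more than 5000 bp from any 5′ end, which were 12.8% of the list, it ranked 2. Of the 5 IDR regions with a higher signal, 4 lay no more than 20 kb from the start of mdl-1, which is one of the names given for the tagged gene.

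Regions 2 to 5 lay inside aakg-1, in introns. Region 2 had its summit at 12568435, 6966 bp downstream of the 5′ end, in a 9.6 kb stretch free of annotated exons that 2 of the 7 transcripts span. Its signal was 88.5 in the pooled list (rank 105), 24.1 in replicate 1 (rank 94) and 65.4 in replicate 2 (rank 112). The transcript start closest to it, at 12563078, lay 5357 bp further downstream. Regions 3, 4 and 5 shared an 11.9 kb exon-free stretch that 4 of the 7 transcripts span.

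Region 3 had its summit at 12556302, 3927 bp downstream of an internal transcript start at 12560229, and region 4 had its summit at 12558265, 1964 bp downstream of that start. Region 3 had signals of 59.3 pooled (rank 245), 10.9 in replicate 1 (rank 527) and 48.5 in replicate 2 (rank 214). Region 4 had signals of 42.5 pooled (rank 453), 13.4 in replicate 1 (rank 364) and 26.6 in replicate 2 (rank 632). The order of these 2 regions was therefore the opposite in replicate 1. Region 5, with its summit at 12549732, had signals of 26.1 pooled (rank 1002), 3.57 in replicate 1 (rank 6541) and 20.7 in replicate 2 (rank 985).

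Region 5 stood just inside the IDR list, in which 13 regions had a lower signal. It was strong in replicate 2 and weak in replicate 1, where its summit was also displaced by 101 bp. That replicate 1 region also covered the summit of a neighbouring pooled region at 12549935, so it does not tell them apart. Of the IDR regions, 14.5% stood at or past rank 6541 in replicate 1 or were absent from it. Region 5 lay 1651 bp upstream of the internal transcript start at 12548081 and overlapped the non-coding RNA genes Y111B2A.32 and Y111B2A.33. In the soft-masked reference 37.8% of its summit window was marked as repeat, beside a median of 12.9% over IDR regions. The share ran from 9.45% to 27.9% at regions 1 to 4 of aakg-1 and was 25.4% at aak-2. The part of such sequence in the call of region 5 was not tested.

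**Figure D1:**
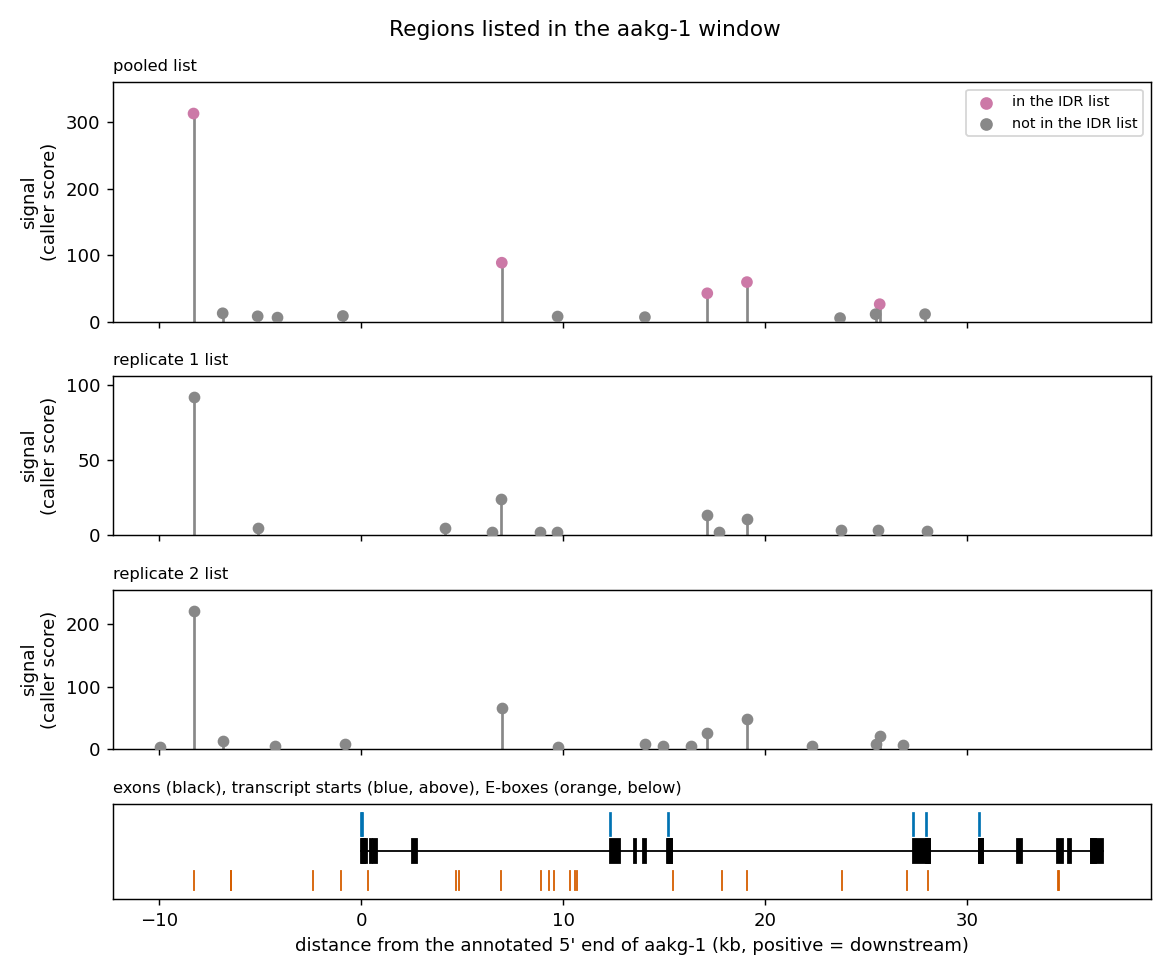
Signal (caller score, vertical axes) of every listed region in the aakg-1 window against the distance of its summit from the annotated 5′ end in kb, for the pooled, replicate 1 and replicate 2 lists, above the exons, transcript starts and E-boxes. The tallest region of each list is the upstream one, with its pooled summit 8289 bp from the 5′ end, and the other 4 IDR regions lie within the gene.

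The number of IDR summits in the aakg-1 window was matched or exceeded by few genes, since 11 protein-coding genes, or 0.0551%, held at least 5, aakg-1 among them. The window was longer than most. Of the 198 protein-coding genes of at least 20 kb, 33 (16.7%) held any IDR summit in the gene body and 6 (3.03%) held at least 4, the number in the aakg-1 body. With each summit given to the gene with the nearest 5′ end, aakg-1 had 5, and 3 genes including it had at least 5. The summits were spread over 34.0 kb, and 7 IDR summits in all lay within 50 kb of the gene.

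The catalytic alpha gene aak-2 (WBGene00020142) lies on the plus strand of chromosome X, from 16796087 to 16803398, and is 7.3 kb long. Its IDR region ran from 16796883 to 16797186 with the summit at 16797056. The signal was 152 in the pooled list (rank 26), 39.4 in replicate 1 (rank 24) and 117 in replicate 2 (rank 26). The highest signal in the aak-2 window exceeded that of 99.60% of protein-coding genes in the pooled list, 99.64% in replicate 1 and 99.57% in replicate 2, and 78 genes had a higher pooled value. Among genes closest in length the pooled figure was 99.65%.

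The other 11 pooled regions in the aak-2 window ranked far lower, the next at 1779 with a signal of 18.6. The aak-2 IDR region lay in an intron of 2 of the 3 annotated transcripts, in a 3.5 kb stretch free of annotated exons. Its summit was 969 bp downstream of the 5′ end. The IDR region overlapped the non-coding RNA gene T01C8.9. The replicate 1 summit was 42 bp to the left and the replicate 2 summit fell on the same base. The next 5′ end on the other side, that of the touch receptor channel gene mec-4, was 10059 bp away. At the 5′ end of aak-2 itself, the pooled regions at 22 bp and 283 bp upstream had signals of 8.40 and 9.55.

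The second alpha gene, aak-1 (WBGene00019801, chromosome III, 8756990 to 8761090, minus strand), had no IDR summit in its window. Its highest signal was 14.5 pooled and 13.4 in replicate 2, and the replicate 1 list held no region in the window. These values exceeded those of 64.2% of genes in the pooled list and 70.0% in replicate 2. The strongest of its 9 pooled regions lay 5272 bp upstream in an exon of mig-22, which takes part in chondroitin synthesis, and 980 bp from the mig-22 5′ end. The highest pooled region with aak-1 as its nearest 5′ end had a signal of 7.96 and ranked 12001. With a flank of 5 kb the pooled figure for aak-1 was 34.8% and with 20 kb it was 93.2%, so its place in the ranking depended on the window, while aak-2 had 99.21% to 99.88% over the 8 alternatives tried.

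The beta subunits hold the alpha and gamma subunits together. For aakb-1 (WBGene00010115, chromosome X, 13755769 to 13759391, plus strand), the highest signal was 15.5 pooled, 4.88 in replicate 1 and 11.8 in replicate 2. These exceeded the values of 68.0%, 56.7% and 63.6% of genes. For aakb-2 (WBGene00012928, chromosome III, 11237143 to 11239204, plus strand), it was 11.3 pooled, 3.53 in replicate 1 and 11.5 in replicate 2, above 46.4%, 31.5% and 62.2% of genes. The median gene had 11.8 pooled, 4.47 in replicate 1 and 9.98 in replicate 2, so aakb-2 was below the median in 2 of the 3 lists and aakb-1 was above it in each.

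The strongest pooled regions in both beta windows were closer to other genes. In the aakb-1 window it lay in an exon of the carboxylesterase gene cest-13, 52 bp from that gene's 5′ end. In the aakb-2 window it was intergenic, and the nearest 5′ end, at 1565 bp, was that of rsks-1, which encodes the S6 kinase downstream of TOR. The strongest region with the beta gene itself as nearest 5′ end had a pooled signal of 9.68 for aakb-1 (rank 7432) and 11.0 for aakb-2 (rank 5360).

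The second listed gamma gene, aakg-2 (WBGene00020633, chromosome X, 16866046 to 16869031, minus strand), stood just outside the IDR list. Its highest signal was 24.7 pooled (rank 1115), 5.11 in replicate 1 (rank 2938) and 19.2 in replicate 2 (rank 1122). The lowest IDR signal was 25.9, and 100 places separated this region from the end of the IDR list. The pooled value exceeded that of 83.4% of genes, the replicate 1 value 60.7% and the replicate 2 value 83.5%. The region ran from 16871311 to 16871674, intergenic and 2462 bp upstream of aakg-2, and was closer to the 5′ end of T20F7.1, at 1419 bp. The strongest region with aakg-2 as nearest 5′ end had a signal of 8.49 and lay 39 bp upstream of it.

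**Figure D2:**
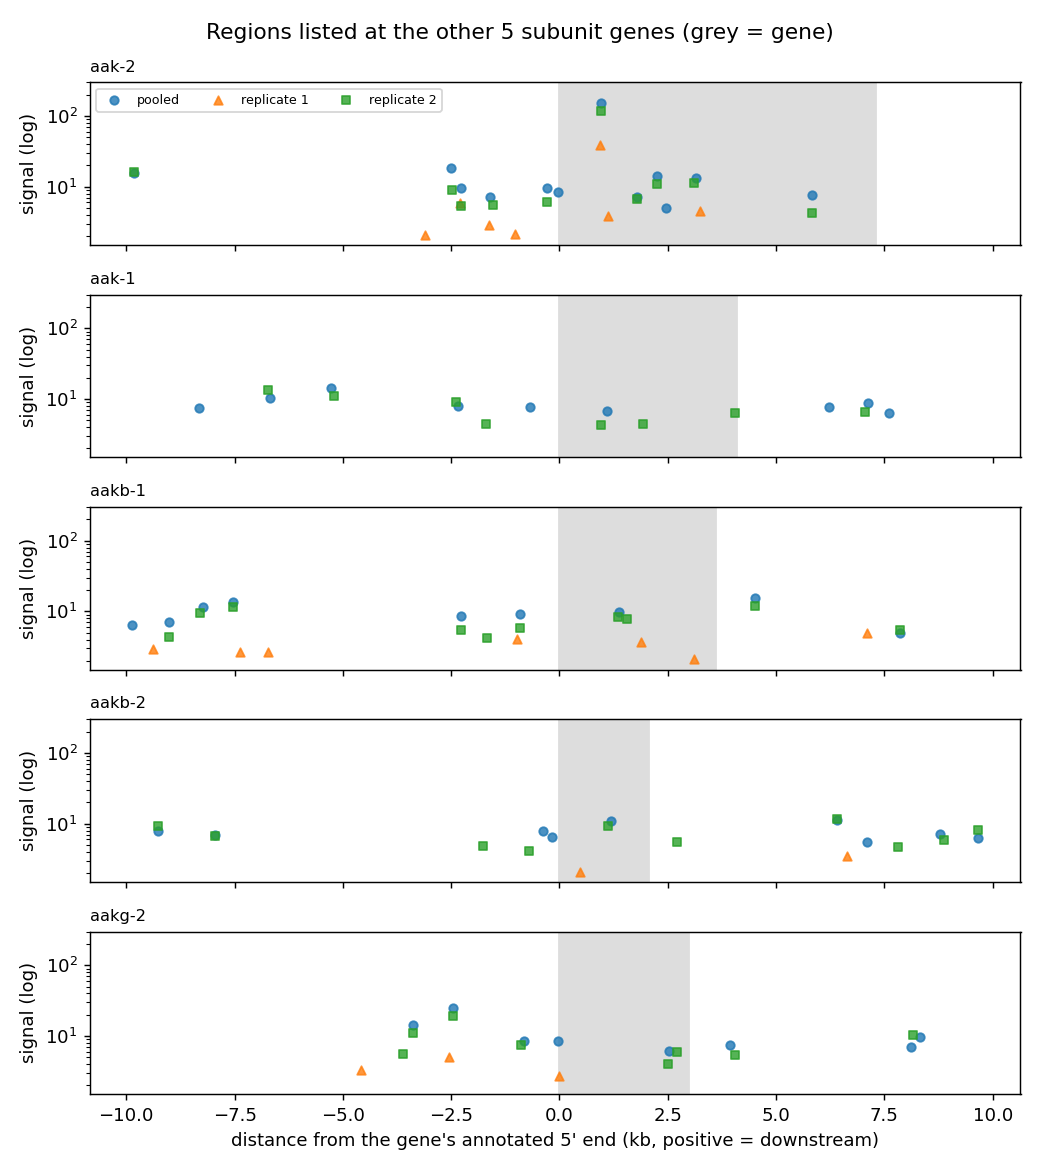
Signal of each listed region (caller score, log axis) against the distance of its summit from the annotated 5′ end in kb, for aak-2 and the 4 subunit genes without an IDR summit, with circles for the pooled list, triangles for replicate 1 and squares for replicate 2. The intronic aak-2 region, with its pooled summit at 969 bp, is the highest in all lists, the other genes stay at or below 24.7 pooled, and aak-1 has no replicate 1 point.

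**Figure D3:**
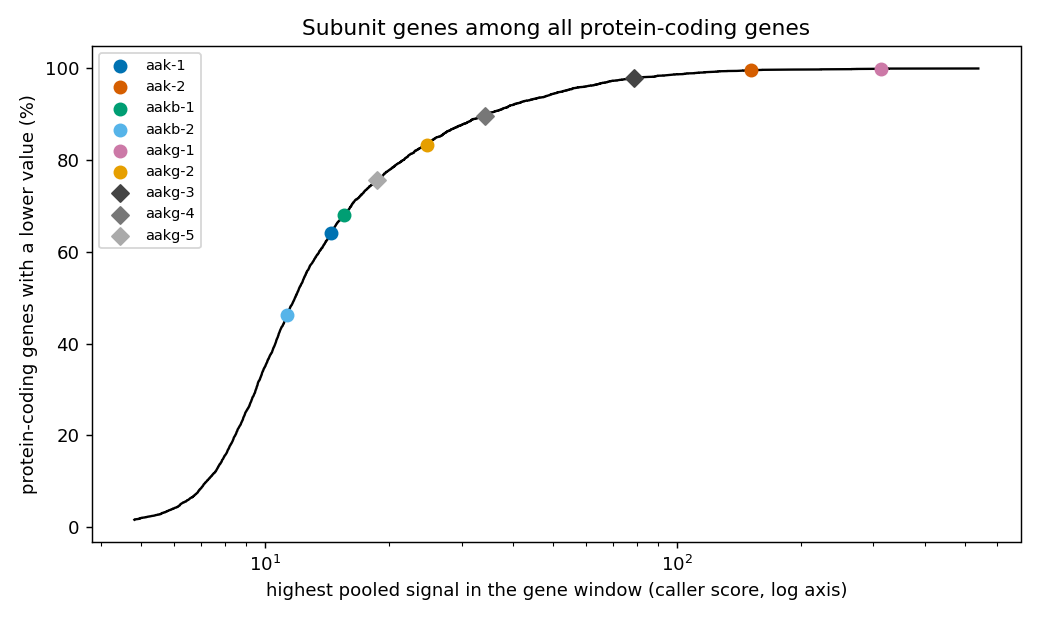
Share of protein-coding genes with a lower value (vertical axis, percent) against the highest pooled signal in the gene window (caller score, log axis), drawn as a line over all genes with the 6 subunit genes as circles and 3 further gamma genes as diamonds. aakg-1 and aak-2 lie at 99.94% and 99.60%, and aakb-2 at 46.4% is the lowest of the 9.

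Over the 6 genes the median share of genes with a lower pooled value was 75.7%. In the promoter window, which spans 1000 bp before the gene's first base and 200 bp after it, 0 of the 6 genes held an IDR summit, where 2.52% of all protein-coding genes did. The highest pooled signal in the promoter windows ran from 7.72 for aak-1 to 9.55 for aak-2. Each of the 6 values exceeded the promoter values of 79.4% to 85.8% of genes. The median gene had no pooled region in its promoter window, and the 6 values were near the pooled list's median of 7.20, so these shares mostly count genes with no region there. The separation of aakg-1 and aak-2 from the other 4 genes was therefore in distal and intronic regions. Over the IDR list, 64.5% of summits were intergenic, 29.2% intronic and 6.31% exonic, and the median distance to the nearest 5′ end was 1156 bp. The 6 summits at aakg-1 and aak-2 comprised 1 intergenic and 5 intronic ones, at 969 to 25669 bp from the 5′ end.

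The E-box CACGTG was searched on both strands within 100 bp of each summit. It was present at 3 of the 6 IDR regions (50%), where 29.6% of all IDR regions had it. Those 3 were the strongest aakg-1 regions. Its centre lay 2.5 bp to the right of the summit in region 1, 28.5 bp to the right in region 2 and 12.5 bp to the left in region 3, beside a median distance of 29 bp over all IDR regions. Regions 4 and 5 had none. Among intronic IDR summits the share with the E-box was 35.1% and among intergenic ones 26.7%.

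At aak-2 the sequence printed above holds CACGTG at 16796955 to 16796960. Its centre lay 98.5 bp to the left of the pooled summit, so 1 of its 6 bases fell outside the window and it was not counted. The replicate 1 region, whose summit lay further left, held it within 100 bp. The variant CACGCG was nearer, 46.5 bp to the left of the summit, and was found at 162 of the 1015 IDR regions. Counting CACGTG over the whole listed region gave 4 of 6 regions (66.7%), where 32.3% of all IDR regions had it.

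The bases next to the E-box differed among the aakg-1 sites. On the aakg-1 strand, with 2 bases on each side, they read as follows.
region 1: CACACGTGCC
region 2: ACCACGTGAC
region 3: ACCACGTGAG

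The E-box at aakg-2, 13.5 bp to the left of its pooled summit, read CCCACGTGTT on the aakg-2 strand. The replicate 1 summit of that region lay 97 bp to the right of the pooled one and had no CACGTG within 100 bp. Across the windows of the 6 genes there were 48 CACGTG sites, or 0.327 per kb, beside 0.177 per kb over the genome. The aakg-1 window held 23 of them, at 0.492 per kb. Of the 48 sites, 3 (6.25%) lay wholly within 100 bp of an IDR summit and 6 (12.5%) wholly within 100 bp of any pooled summit. Over the 17729 sites in the genome the shares were 1.89% and 9.58%. Of the 23 sites at aakg-1, 19 did not lie wholly within 100 bp of a pooled summit. Nor did the 5 in the aak-1 window or the 5 in the aak-2 window, which include the site centred 98.5 bp from the aak-2 IDR summit. In the replicate 1 list, 2 regions at aak-2 and 6 at aakg-1 held CACGTG within 100 bp of the summit, and in the replicate 2 list 0 at aak-2 and 3 at aakg-1 did.

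Other short elements were counted in the same 100 bp windows, on both strands and with overlapping matches included. GAGAGA was present at all 6 IDR regions of aakg-1 and aak-2 and at 57.4% of all IDR regions. Region 5 held 21 overlapping matches in the GA repeats seen at both ends of its printed sequence, and region 1 held 5. CTGCGTC was present at regions 1 and 3 of aakg-1, with 1 and 2 matches, at aak-2 with 1 match, and at 22.6% of all IDR regions. CAGCTG, another E-box, was at none of the 6 and at 6.40% of all IDR regions. The share of G and C in the 6 windows ran from 44.8% to 51.7%, beside a median of 45.8% over IDR regions.

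**Figure D4:**
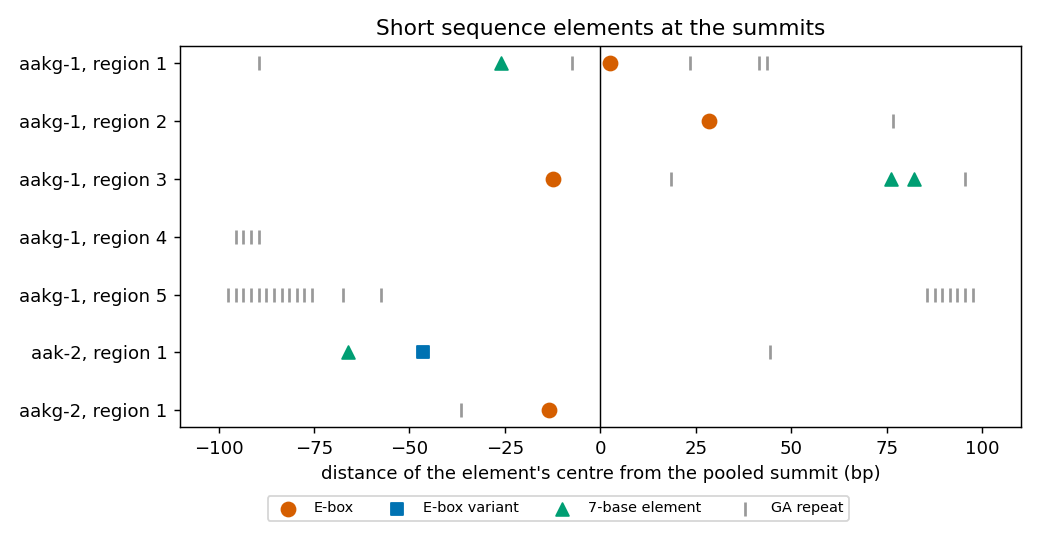
Position of the centre of each short element relative to the pooled summit (bp, horizontal axis; 0 is the summit) at the 6 IDR regions of aakg-1 and aak-2 and at the strongest aakg-2 region. The E-box (circles) lies within 28.5 bp of the summit at 4 regions. aak-2 has the variant (square) 46.5 bp to the left, and its CACGTG, centred 98.5 bp to the left, is not drawn. The 7-base element CTGCGTC (triangles) is at regions 1 and 3 of aakg-1 and at aak-2. Regions 4 and 5 of aakg-1 have only GA repeats (ticks).

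All 6 IDR regions of aakg-1 and aak-2 had their summit in a listed region of both replicates, which held for 913 of the 1015 IDR regions (90.0%). Of the 6, 5 stood among the 1015 highest regions of each replicate, and region 5 of aakg-1 was the exception. Its replicate 1 region also covered the summit of a neighbouring pooled region. The summits of the replicates lay within 50 bp of each other at 65.3% of IDR regions listed in both, with a median difference of 35 bp. Outside the IDR list the 6 gene windows held 55 pooled regions with signals from 4.95 to 24.7. Of these, 41 were listed in replicate 2, 11 in replicate 1 and 7 in both. Over all pooled regions outside the IDR list, 68.8% were listed in replicate 2, 20.8% in replicate 1 and 10.7% in both. CACGTG was present at 3 of the 55 (5.45%), near the 4.55% found over all pooled regions outside the IDR list.

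**Figure D5:**
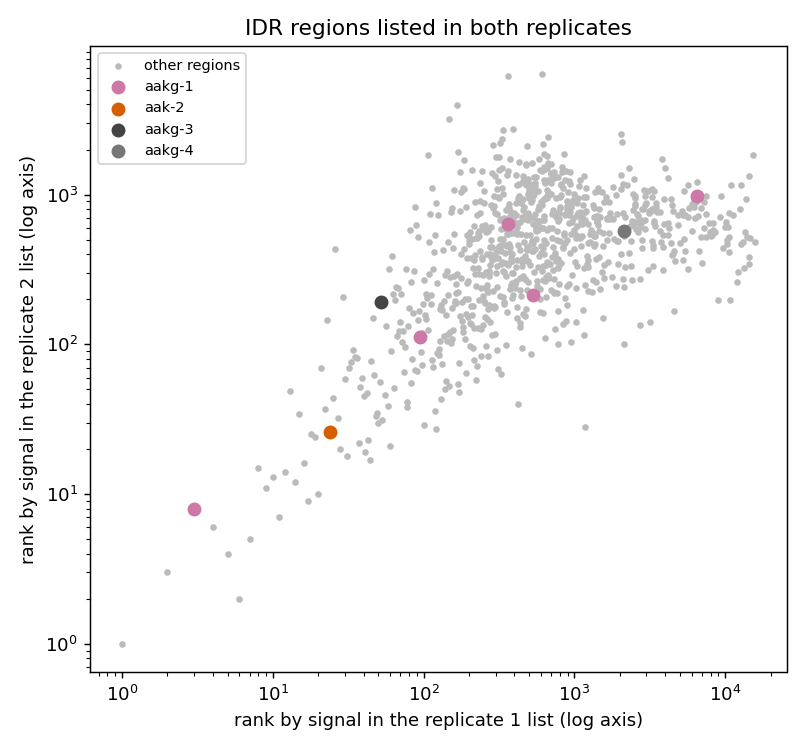
Rank by signal in the replicate 2 list against rank in the replicate 1 list (log axes, rank 1 is the highest) for the IDR regions listed in both, with the regions of aakg-1, aak-2, aakg-3 and aakg-4 coloured. Region 1 of aakg-1 (ranks 3 and 8) and aak-2 (24 and 26) stand in the lower left corner, and region 5 of aakg-1 stands at 6541 and 985.

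C. elegans has further genes for gamma-like subunits, and 3 were examined beside those listed. aakg-3 (WBGene00021527, chromosome X) had 1 IDR region, with a pooled signal of 78.8 (rank 130) and ranks of 52 and 192 in replicates 1 and 2. It was intergenic, 4791 bp upstream of aakg-3, and held CACGTG 18.5 bp to the left of its summit. aakg-4 (WBGene00020135, chromosome X) had 1 IDR region, with a pooled signal of 34.2 (rank 658) and ranks of 2129 and 573. That region was intronic, 2980 bp inside the gene from its 5′ end and 49 bp from the start of another annotated transcript, and it had no CACGTG. It overlapped the non-coding genes T01B6.8 and T01B6.9. Its replicate 1 region also covered the summit of a neighbouring pooled region at 2316558 (rank 22297), which had 2 CACGTG sites. aakg-5 (WBGene00011276, chromosome II) had no IDR region, and its highest pooled signal, 18.7, lay 72 bp upstream of its 5′ end. Of the 5 gamma genes examined, 3 had an IDR summit in the gene window, beside 15.3% of all genes, and 0 had one in the promoter window, beside 2.52%. The 3 include aakg-1, which was chosen for its signal, so this count is a description. The aakg-3 region is shown whole for its E-box and a CACGCG in capitals, from chrX:2971624-2971734, plus strand, RefSeq WBcel235.
aakg-3: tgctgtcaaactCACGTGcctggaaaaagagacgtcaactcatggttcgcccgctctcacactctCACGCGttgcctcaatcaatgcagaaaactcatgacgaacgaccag

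A hand-picked list of 36 genes of the AMPK pathway, with the further gamma genes and related kinases among them, was examined for the same measure. It was chosen with earlier results of these data known, so its shares are descriptions. An IDR summit lay in the windows of 15 (41.7%), where 15.3% of all genes had one, and in the promoter windows of 5 (13.9%), where 2.52% did. The listed genes were longer than most, with a median length of 7576 bp beside 2027 bp, and the part of length in these shares was not tested. Their median share of genes with a lower pooled value was 76.4%.

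Genes for transcription factors and cofactors under AMPK or acting with it held an IDR summit in the gene window in 6 of 7 cases. Over all protein-coding genes 15.3% did, and these 7 are part of the hand-picked list. The highest signal was at hlh-30, which encodes the TFEB homologue that controls autophagy and lysosome genes, with 4 IDR summits and a pooled signal of up to 96.5 (rank 82). The strongest of these was rank 54 in replicate 1 and was not listed in replicate 2. daf-16, the FOXO gene, held 3 summits, with a highest signal of 52.4 in an intron, closer to the 5′ end of gpx-8. The CREB gene crh-1 had a signal of 51.2 at 349 bp upstream and the nuclear receptor gene nhr-49, a regulator of fat metabolism, 50.2 at 429 bp upstream, both with an E-box. crtc-1, a CREB coactivator that AMPK phosphorylates, had 35.2, and mdt-15, a Mediator subunit gene of lipid metabolism, had 27.9 at a summit closer to W04D12.1 and not listed in replicate 1. The SREBP gene sbp-1 had none.

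The other groups below held an IDR summit in the gene window at a lower share than that group, though each above the 15.3% of all protein-coding genes. The counts were 1 of 6 for the upstream kinase complex and activators and 2 of 5 for related kinases. They were 2 of 9 for TOR complex 1 and its regulators and 2 of 6 for metabolic and autophagy targets. Among 6 genes of the upstream kinase complex and activators, mop-25.1, a homologue of the scaffold MO25, had a summit with a signal of 49.4, closer to the 5′ end of hrg-1. par-4, the LKB1 homologue that phosphorylates AMPK, had none, and its highest pooled signal of 6.76 exceeded that of 7.07% of genes. Of 5 related kinases, kin-29, the salt-inducible kinase homologue, had 34.5 at 174 bp upstream, and par-1, a polarity kinase, had 47.9 in an intron, closer to the 5′ end of AH10.4. Of 9 genes of TOR complex 1 and its regulators, the GTPase gene rheb-1 had 27.2 at 268 bp upstream and the folliculin gene flcn-1 had 47.6 within an exon of its neighbour F22D3.4. Of 6 metabolic and autophagy targets, the lipase gene atgl-1 had 117 (rank 50, with ranks of 130 and 43 in replicates 1 and 2) at 1791 bp upstream, with an E-box, and the autophagy kinase gene unc-51 had 49.1.

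The genes with ranks most like those of aakg-1 were found by the distance between log10 ranks in the 2 replicate lists, for the strongest region whose nearest 5′ end is the gene. Over 7403 genes, aakg-1 had ranks of 3 and 8. The closest was epn-1, an epsin gene of endocytosis, with ranks of 4 and 6 and a distance of 0.177. The nuclear receptor gene nhr-19 followed with ranks of 7 and 5 (0.421), and the protein phosphatase gene ppm-2 with 9 and 11 (0.497).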

How the data were processed

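The region lists were deposited by the authors for L3 larvae of 1 strain in 2 biological replicates. Per the labels and the deposited file descriptions, each replicate list came from 1 replicate and a control alignment, the pooled list from both, and the IDR list from all of these. No source used here names the aligner, caller, thresholds or IDR cutoff. The signal of a region, and the offset of its summit, are scores deposited by the authors, and signal has no stated scale. The ce10 lists were not used.

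Genes were those of Ensembl release 115, and coordinates are 1-based. A gene's value was its highest signal in the gene window, set against the share of genes with a strictly lower value. An IDR region counted as listed in a replicate where its summit lay in a region of that list. Genes were named if they were members, further gamma genes, pathway genes with an IDR summit, neighbours of a described member region, or the 3 most like aakg-1. Other names, such as par-4, sbp-1 and the neighbours of pathway regions, were added after values were seen. The members and lists were chosen with earlier results of these data known. Calculations used Python 3.11.15, numpy 2.4.6 and pandas 2.3.3, tested on simulated data, and figures matplotlib 3.10.9.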

Additional observations from a re-analysis of the deposited data

How the results depend on the processing

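The alternatives changed the window, the assignment, the list or the search width. With 20 kb in place of 10 kb, 4 members held an IDR summit, where 27.4% of all genes did. The added summits were at aak-1, with signals of 38.8 and 64.0 near pdhk-2 and K02D10.4, and at aakb-1, with 32.9 nearest to nhr-71. With 1 replicate left out at a time, the 1015 highest regions of the other replicate's list stood in for the IDR list. No IDR step was applied to them. Each time 2 members held such a summit in the gene window and 0 in the promoter window, with 13 to 15 pathway genes. Of member regions, 50% to 80% had CACGTG, the latter without replicate 2 (4 of 5 regions, where 23.8% of the 1015 had it). With 5 kb, region 1 of aakg-1, at 8289 bp upstream, fell outside the window, and the highest aakg-1 signal was the 88.5 of region 2. Of the 5 IDR regions left, 2 (40%) had CACGTG, beside 29.6% of the IDR list. Pathway genes with an IDR summit numbered 19 with 20 kb, 11 by nearest 5′ end and 10 with the 507 strongest IDR regions. A promoter window around every annotated transcript start, chosen after seeing the data, also gave 0 members. The percentile of aakg-1 ran from 99.10, with 5 kb, to 99.99 and that of aak-2 from 99.21 to 99.88 over the 8 alternatives. That of aak-1 was 34.8 with 5 kb, 93.2 with 20 kb and 79.9 by summed signal. Without replicate 2, aak-1 fell to 0, since replicate 1 lists no region in its window, and aakg-2 to 60.7. With the nearest 5′ end, aakg-2 had 66.7 and aakb-2 80.8. Of 48 alternatives for percentiles, 19 moved by at least 1 SD of the 2 replicates' own percentiles. That SD rests on 2 values per gene, which are also the alternatives without a replicate, so the count does not measure stability. The aak-1 replicates stood at 70.0 and 0, so its 34.8 and 93.2 counted as unmoved. For aak-2, 99.65 among genes closest in length counted as moved from 99.60. No paired analysis was possible because there is 1 group of samples. Read depth is unknown, and with 2 replicates of unequal list length the weaker regions are the least certain.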
